A study of Mus musculus with 2 samples.

Results

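Resting Rag1-positive small pre-B cells are B lineage cells between their divisions and the display of a finished antibody, and they were picked out here by their own RNA counts. A barcode (the tag that stands for 1 captured cell) was a member if it held at least 3 UMIs of Cd79a and Cd79b together, at least 1 UMI of Rag1, at most 1 UMI of Dntt, and 0 UMIs of Mki67 and Top2a. A UMI, or unique molecular identifier, counts 1 captured RNA molecule. The rule was applied after barcodes with under 200 genes or over 20% mitochondrial UMIs had been dropped, which left 22810 of the 23333 deposited barcodes, and it found 1360 members (the measured counts that chose them are given below as a description). Of these, 1065 came from the CGG-Cit library and 295 from the CGG library.

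The cells came from wild-type C57BL/6 mice with a 2 mm defect in the parietal bone of the skull, taken 14 days after a hydrogel was placed in the defect. The CGG-Cit group received CGG-Cit hydrogel and the CGG group received CGG hydrogel, with 1 library each; both groups share the strain, the defect, the time and the collagenase digestion. The labels spell out neither name. How old the mice were, and how many were pooled for a library, the sources used here do not give. Without a second library no difference between hydrogels could be tested, so every interval below is a 95% interval for counting error only and says nothing about the spread between mice.

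In mouse bone marrow, a B cell precursor first joins its heavy chain gene segments, with the Dntt product (terminal transferase) adding bases at the joints. The heavy chain then pairs with a surrogate light chain made of Vpreb and Igll1 proteins to form the pre-B cell receptor, which signals through Cd79a and Cd79b and drives a burst of division. The surrogate light chain genes are shut down. As the cell leaves the cycle, the RAG1 and RAG2 recombinase cuts the light chain loci until a complete receptor reaches the surface. The transcription factors Foxo1, Irf4 and Ikzf3 (Aiolos) are known to act in that step, and Ms4a1 (CD20) and the MHC class II genes come up later in maturation.

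The stretches of DNA just upstream of 4 of these genes are printed to show a sequence that they share. Rag1 and Cd79a chose the cells, and Vpreb1 and Igll1 are the surrogate light chain pair whose levels differed between the libraries. Each line gives the 250 bases before the RefSeq start site (assembly GRCm38.p6, gene strand), and capitals mark the E-box CAGGTG, or CACCTG where it lies on the other strand. This is the core motif known to be bound by E2A, the product of Tcf3.
Rag1, chr2:101649533-101649782, minus strand: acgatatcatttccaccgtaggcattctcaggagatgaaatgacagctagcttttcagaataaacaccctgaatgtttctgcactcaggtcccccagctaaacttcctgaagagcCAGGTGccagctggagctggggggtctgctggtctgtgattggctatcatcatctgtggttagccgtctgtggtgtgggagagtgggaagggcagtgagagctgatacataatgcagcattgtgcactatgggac
Cd79a, chr7:24897247-24897496, plus strand: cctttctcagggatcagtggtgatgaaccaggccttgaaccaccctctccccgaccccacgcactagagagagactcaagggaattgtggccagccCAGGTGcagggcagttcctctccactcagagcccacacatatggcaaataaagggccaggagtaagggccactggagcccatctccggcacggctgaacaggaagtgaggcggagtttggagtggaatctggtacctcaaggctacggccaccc
Vpreb1, chr16:16869256-16869505, minus strand: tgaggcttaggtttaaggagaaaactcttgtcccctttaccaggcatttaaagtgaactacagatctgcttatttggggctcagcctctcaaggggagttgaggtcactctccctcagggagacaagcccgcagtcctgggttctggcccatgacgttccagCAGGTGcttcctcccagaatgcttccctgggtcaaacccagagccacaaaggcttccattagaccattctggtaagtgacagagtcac
Igll1, chr16:16863986-16864235, minus strand: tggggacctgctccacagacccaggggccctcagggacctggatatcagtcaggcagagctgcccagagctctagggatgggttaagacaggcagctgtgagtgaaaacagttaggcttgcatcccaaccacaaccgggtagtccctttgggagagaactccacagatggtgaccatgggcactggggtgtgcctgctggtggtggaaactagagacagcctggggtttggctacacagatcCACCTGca
The first base of the E-box lay 135, 154, 88 and 8 bases before the start site of Rag1, Cd79a, Vpreb1 and Igll1. It was searched on both strands in windows of 250 bases before and 50 after the start site. It occurred in 5 of 7 genes looked at (these 4 and Vpreb2, but not Rag2 or Vpreb3), against 20.2% of 32851 mouse promoter windows. Vpreb1 and Vpreb2 share the bases around their E-box, so they are not separate cases. The genes were picked by hand, and Cd79b could not be looked at because it had no window. The Ebf1 core motif CCCNNGGG occurred in 1 of the 7, Igll1, against 13.7% of all windows. A match describes the letters and is not evidence of binding in these cells.

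The values that chose the cells sat well inside some limits and close to others. The median member held 18 Cd79a and Cd79b UMIs in the CGG-Cit library and 15 in the CGG library, and 8 CGG-Cit and 6 CGG members sat at the limit of 3, with 4 CGG-Cit and 11 CGG barcodes just outside at 2. The Rag1 limit was the tight one. Members with 1 Rag1 UMI numbered 473 in CGG-Cit and 113 in CGG, while 1317 CGG-Cit and 492 CGG barcodes met every other condition with 0. The highest Rag1 count in a member was 12 UMIs in CGG-Cit and 9 in CGG. At the Dntt limit, 25 CGG-Cit and 11 CGG members held 1 UMI, with 16 and 6 barcodes just outside at 2. At the cycling limit, 146 CGG-Cit and 29 CGG barcodes lay just outside with 1 UMI of Mki67 and Top2a. With Cdk1, Birc5 and Ccnb2 also held at 0, 951 of the 1065 CGG-Cit members and 279 of the 295 CGG members remained. The others held a UMI of a cycling gene that the rule did not use.

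The label was checked on genes that the rule did not use, and the B lineage genes were there. Ebf1, a founding transcription factor of the B lineage, stood at 4397 CPM (UMIs per 1000000 UMIs of the members) in CGG-Cit and 3774 CPM in CGG, against 17.7 and 169 CPM in barcodes of the same libraries with no Cd79a or Cd79b UMI. Pax5, which keeps cells in that lineage, stood at 490 CPM in CGG-Cit and 612 CPM in CGG, against 1.78 and 4.05 CPM in those Cd79-negative barcodes. Vpreb3, a B lineage protein related to the surrogate light chain, had a UMI in 1063 of 1065 CGG-Cit members and in 291 of 295 CGG members. Members were shallow, with a median of 2730 UMIs and 1263 genes in CGG-Cit and 2496 UMIs and 1243 genes in CGG. Cycling cells of the lineage had medians of 8700 and 6906 UMIs, but a Mki67 or Top2a UMI is likelier in a deep barcode. Ms4a1-positive cells, defined below, were about as shallow, with medians of 2808 and 2831 UMIs. Cell size was not measured, so "small" rests on RNA content, which did not set members apart from Ms4a1-positive cells. The gene tables hold 27998 genes but 0 of the immunoglobulin constant genes, so neither a heavy nor a light chain protein could be read from them.

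RNA of other cell types was present in the members' droplets and differed between the libraries. The 6 neutrophil markers summed to 33781 CPM in CGG-Cit members and 17026 CPM in CGG members, 0.217 and 0.333 times their level in Cd79-negative barcodes. The 5 erythroid markers summed to 23890 CPM in CGG-Cit and 17562 CPM in CGG, where 1 member held 4990 of the 11648 Hbb-bs UMIs. The 5 mesenchymal markers summed to 35.5 CPM in CGG-Cit, where Pdgfra and Prrx1 were at 0, and to 4061 CPM in CGG, where all 5 were detected. The 6 monocyte and macrophage markers summed to 53.5 CPM in CGG-Cit and 799 CPM in CGG. The T and NK, plasmacytoid dendritic, endothelial, myeloid progenitor, and mast cell and basophil lists summed to between 8.14 and 186 CPM in CGG-Cit and between 6.37 and 236 CPM in CGG. Emcn was at 0 in CGG-Cit, and Ccr9, Cpa3 and Ms4a2 were at 0 in CGG. T and NK RNA was concentrated, with at least 10 such UMIs in 8 CGG-Cit and 8 CGG members. The endothelial list stood at 112 CPM in CGG-Cit members and 109 CPM in CGG members, against 45.4 and 146 CPM in Cd79-negative barcodes. The 5 plasma cell markers summed to 1126 CPM in CGG-Cit and 723 CPM in CGG, mostly Mzb1 (635 and 564 CPM), which B lineage cells also express, and in CGG-Cit the Jchain of 1 barcode. The level in the Cd79-negative barcodes of the same library is therefore given beside many of the genes below, and the part of this RNA in a difference was not tested. A total of 34 barcodes occurred in both libraries, 9 members carried one of them (8 in CGG-Cit and 1 in CGG), and 0 of them were members in both.

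Resting Rag1-positive cells made up a larger share of the CGG-Cit library, and a close share of its B lineage cells. They were 10.1% (9.54 to 10.7) of 10531 kept CGG-Cit barcodes and 2.40% (2.14 to 2.69) of 12279 kept CGG barcodes (exact Clopper-Pearson intervals). The difference was 7.71 percentage points (Newcombe interval 7.08 to 8.35), a ratio of 4.21. Of barcodes with at least 3 Cd79a and Cd79b UMIs, members were 23.7% (22.5 to 24.96) of 4495 in CGG-Cit and 23.5% (21.2 to 26.0) of 1254 in CGG. That difference was 0.168 points, with an interval of -2.55 to 2.76 points.

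The neighbouring groups of the lineage, cut by the same genes, did not keep their shares of the Cd79-positive barcodes. Dntt-positive cells (at least 2 Dntt UMIs, with any Mki67 and Top2a count) were 7.14% in CGG-Cit and 10.0% in CGG. Cycling cells (at least 1 Mki67 or Top2a UMI) were 39.9% in CGG-Cit and 27.2% in CGG. Ms4a1-positive cells (no Rag1, Mki67 or Top2a UMI, at least 1 Ms4a1 UMI) were 14.6% in CGG-Cit and 25.4% in CGG. These groups were formed on measured genes and differ in depth, so the shares are a description of the libraries.

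**Figure D1:**
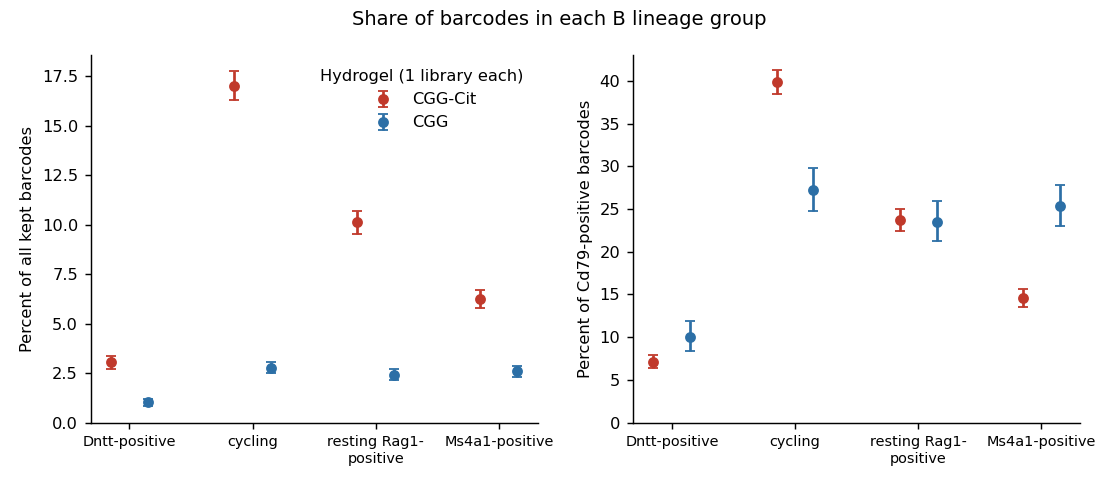
Percent of barcodes in 4 B lineage groups, of all kept barcodes (left) and of Cd79-positive barcodes (right), in CGG-Cit (red) and CGG (blue), 1 library each; bars are exact 95% intervals for counting error. Resting Rag1-positive cells stand at 10.1% and 2.40% of kept barcodes but at 23.7% and 23.5% of Cd79-positive ones.

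The RNA of the recombinase and of enzymes that close its breaks was detected in both libraries. Rag2, a recombinase subunit that the rule did not use (chromosome 2, 101624718 to 101632529, plus strand, mm10), stood at 75.6 CPM in CGG-Cit and 80.7 CPM in CGG, a ratio of 0.937 (0.723 to 1.23). Cd79-negative barcodes held 0.440 and 0.386 CPM of Rag2. Its neighbour and partner Rag1, which cuts DNA at recombination signals, chose the cells, so its values are a description: 651 CPM (625 to 679) in CGG-Cit and 768 CPM (713 to 827) in CGG, a ratio of 0.847 (0.779 to 0.923). Lig4, the ligase of the joining step, stood at 86.6 CPM in CGG-Cit and 70.1 CPM in CGG, a ratio of 1.24 (0.944 to 1.64). Polm, a polymerase known to fill in light chain joints, stood at 93.0 CPM in CGG-Cit and 104 CPM in CGG, a ratio of 0.894 (0.711 to 1.13). Xrcc6 (Ku70), which binds broken DNA ends, was higher in CGG-Cit by its interval, at 361 CPM in CGG-Cit and 272 CPM in CGG, a ratio of 1.33 (1.16 to 1.53). Of 15 tested genes of the V(D)J recombination list other than Rag1, 1 was at least 2-fold higher in CGG-Cit and 0 were 2-fold lower, against 1.19% higher and 7.85% lower among all 7656 genes tested (91 and 601 genes). The 1 gene was Mre11a, a break sensor, with only 78 UMIs in CGG-Cit and 8 in CGG (22.7 and 8.49 CPM, against 11.01 and 10.7 CPM in Cd79-negative barcodes). The median log2 ratio of the list was 0.24 without Rag1 and 0.15 with it, against -0.07 for all tested genes. With Rag1 it turned to -0.09 after thinning to 2000 UMIs per barcode, and to -0.05 over the 8 genes that stood at 2 times or more their Cd79-negative level in the library where they were higher.

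The surrogate light chain genes Vpreb1 and Igll1 were lower in CGG-Cit members, and Vpreb3 was higher. Vpreb1 stood at 161 CPM in CGG-Cit and 296 CPM in CGG, a ratio of 0.545 (0.471 to 0.631), and Igll1 (lambda 5) at 79.9 CPM in CGG-Cit and 149 CPM in CGG, a ratio of 0.538 (0.437 to 0.664). Both were far above Cd79-negative barcodes, which held 3.08 and 6.00 CPM of Vpreb1 and 2.29 and 2.73 CPM of Igll1. Vpreb2 stood at 2.32 CPM in CGG-Cit and 14.9 CPM in CGG. Its transcript matched that of Vpreb1 at 739 of 759 aligned bases (97.4%), so the authors' counting may not have told the copies apart. Vpreb1 (chromosome 16, 16868403 to 16870843, minus strand) also overlaps Top3b on the other strand. Vpreb3 stood at 5172 CPM in CGG-Cit and 3783 CPM in CGG, a ratio of 1.37 (1.32 to 1.42). Cd79a and Cd79b, the signalling chains used by the rule, stood at 3038 and 2673 CPM in CGG-Cit and at 2601 and 2198 CPM in CGG. Of the listed pre-B and B cell receptor genes that the rule did not use, 3 could be tested (Igll1, Vpreb1 and Vpreb3), and 0 passed 2-fold in either direction.

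Surrogate light chain RNA sat in a minority of members rather than in all. At least 1 UMI of Vpreb1 or Igll1 was found in 124 of 1065 CGG-Cit members (11.6%) and in 48 of 295 CGG members (16.3%). Every barcode was then thinned to 2000 UMIs, which left out 180 CGG-Cit and 72 CGG members as too shallow. Vpreb1 was detected in 7.91% (6.22 to 9.89) of thinned CGG-Cit members and 13.9% of CGG members. Among granule-rich barcodes (at least 20 UMIs of 4 granule genes) the shares were 2.0% and 4.9%. Cd79-positive barcodes were not left out of that group, so B lineage cells may be among them. Vpreb1 stood at 26.7 CPM there in CGG-Cit and 17.7 CPM in CGG, against 3.08 and 6.00 CPM in Cd79-negative barcodes. After thinning, Igll1 was detected in 5.31% of CGG-Cit members and 12.6% of CGG members, against 1.4% and 3.2% of granule-rich barcodes. The median depths of those barcodes before thinning were 7580 and 4063 UMIs.

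Within the members, those with detected surrogate light chain RNA were set against those without, over 280 listed genes. In both libraries 11 of the genes, Dntt of the rule among them, had intervals above 1 and 21 had intervals below 1. This comparison selects cells on Vpreb1 and Igll1, so it is a description, and the genes given here were chosen after their values were seen. Erg, a transcription factor of early precursors, stood at 85.2 CPM in CGG-Cit members with such RNA against 10.6 CPM in CGG-Cit members without, a ratio of 8.04 (4.86 to 13.4), and at 118 against 7.94 CPM in CGG. Lef1, known from pro-B cells, stood at 263 against 53.0 CPM in CGG-Cit and at 317 against 64.8 CPM in CGG, ratios of 4.96 and 4.89. Rag2 was 1.74 times as high with such RNA in CGG-Cit (1.26 to 2.38) and 1.76 times in CGG (1.03 to 2.92). Lower with such RNA were Cd2, at 0.596 times in CGG-Cit and 0.208 times in CGG, Il2ra, at 0.674 and 0.348 times, and the kinase gene Pim2, at 0.323 and 0.230 times. Median depths were close, at 2812 UMIs with and 2726 without such RNA in CGG-Cit, and 2609 and 2454 UMIs in CGG.

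Ms4a1 marked another minority, with 116 CGG-Cit members (10.9%) and 59 CGG members (20%), and 7 CGG-Cit and 2 CGG members held RNA of both kinds. Members with an Ms4a1 UMI had 1959 CPM of Cd74, the invariant chain of MHC class II, against 452 CPM in those without in CGG-Cit, and 1387 against 1021 CPM in CGG. Bank1, a B cell adaptor, was 7.27 times as high with Ms4a1 in CGG-Cit (4.36 to 12.1) and 3.76 times in CGG (1.74 to 8.15). Bcl11a was 3.38 and 2.45 times as high, and Pou2f2 (Oct2) 3.17 and 2.33 times. Lower with Ms4a1 were Il7r, the interleukin 7 receptor, at 0.591 times in CGG-Cit and 0.610 times in CGG, Sox4 at 0.627 and 0.499 times, and Xrcc6 at 0.584 and 0.331 times. The CGG library held the larger share of both minorities.

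**Figure D2:**
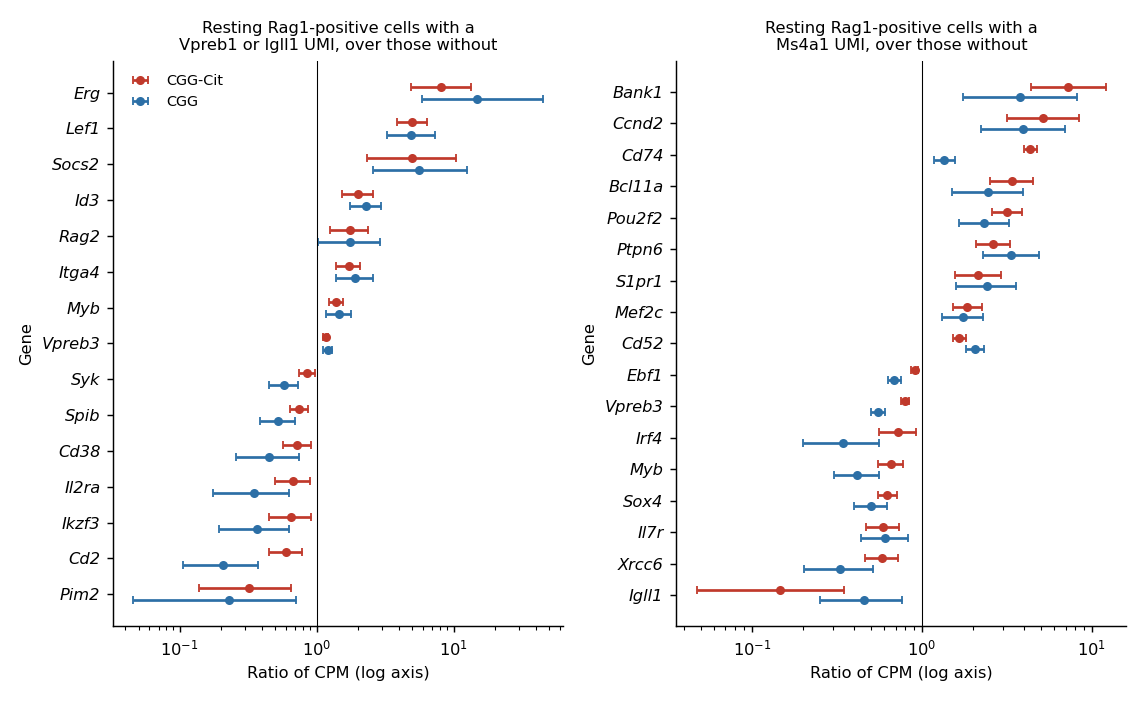
Ratio of CPM on a log axis between resting Rag1-positive cells with and without a Vpreb1 or Igll1 UMI (left) and with and without an Ms4a1 UMI (right), in CGG-Cit (red) and CGG (blue); bars are 95% intervals for counting error. The genes were chosen after their values were seen, among those whose intervals lay on 1 side of 1 in both libraries, such as Erg at 8.04 and 14.9.

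Of 24 tested transcription factors of the lineage, 0 were at least 2-fold higher in CGG-Cit and 1, Id3, was 2-fold lower, against 1.19% and 7.85% of all tested genes, and the list's median log2 ratio was -0.02. Id3, an inhibitor of E proteins, stood at 98.2 CPM in CGG-Cit and 276 CPM in CGG, but Cd79-negative barcodes held 38.2 and 408 CPM of it, so its level in CGG members was below that of the other cells of their library. Irf4, which acts in light chain recombination, stood at 254 CPM (237 to 271) in CGG-Cit and 214 CPM (186 to 246) in CGG. Foxo1, a known activator of the Rag genes, stood at 231 CPM in CGG-Cit and 219 CPM in CGG, a ratio of 1.06 (0.905 to 1.24). Sox4 was highest of the list by ratio, at 1097 CPM in CGG-Cit and 786 CPM in CGG (1.39, 1.29 to 1.51). Ikzf3 was at 133 CPM in CGG-Cit and 180 CPM in CGG (0.736, 0.616 to 0.883), and Lef1 at 78.7 and 115 CPM (0.687, 0.548 to 0.867).

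Of 21 tested interleukin 7 and receptor signalling genes, 0 were at least 2-fold higher in CGG-Cit and 4 were lower, against 1.19% and 7.85% of all tested genes, with a median log2 ratio of -0.08. Il7r stood at 369 CPM in CGG-Cit and 345 CPM in CGG (1.07, 0.947 to 1.21). After thinning it was detected in 50.1% of CGG-Cit and 46.2% of CGG members, against 2.65% and 6.69% of granule-rich barcodes. The lowest by ratio were Cish and Socs2, feedback inhibitors induced by STAT5. Cish had 11 UMIs in CGG-Cit and 18 in CGG (3.20 and 19.1 CPM), where Cd79-negative barcodes held 10.2 and 22.7 CPM. Socs2 had 34 UMIs in CGG-Cit and 31 in CGG (9.88 and 32.9 CPM), where Cd79-negative barcodes held 5.62 and 39.4 CPM.

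The B cell surface gene Ms4a1 and the MHC class II genes were lower in CGG-Cit members. Ms4a1 stood at 101 CPM in CGG-Cit and 189 CPM in CGG, a ratio of 0.532 (0.443 to 0.641), with 0.903 and 2.48 CPM in Cd79-negative barcodes. After thinning it was detected in 7.91% of CGG-Cit members and 17.04% of CGG members. Among granule-rich barcodes, which may include B lineage cells, the shares were 1.1% and 2.6%. The MHC class II genes H2-Eb1 and H2-Aa were lower by more: H2-Aa stood at 93.9 CPM in CGG-Cit and 310 CPM in CGG, a ratio of 0.303 (0.258 to 0.356). Cd79-negative barcodes held 84.2 CPM of H2-Aa in CGG-Cit and 727 CPM in CGG, and Cd74, at 620 CPM in CGG-Cit and 1102 CPM in CGG members, stood at 232 and 1614 CPM there. In CGG, 1 member held 95 of the 292 H2-Aa UMIs and 213 of the 1038 Cd74 UMIs. The surface maturation list had 22 tested genes, of which 0 were 2-fold higher and 4 were 2-fold lower, against 1.19% and 7.85% of all tested genes, with a median log2 ratio of -0.27. Cd38 and Cd93, a marker of immature B cells, had ratios above 1: Cd38 stood at 250 CPM in CGG-Cit and 180 CPM in CGG (1.38, 1.17 to 1.64), and Cd93 at 247 and 209 CPM.

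The genes named next were the 12 highest and the 12 lowest by the bound of their interval nearest to 1, among those at 2 times or more their Cd79-negative level in the library where they were higher. A gene can pass that mark through its difference between the libraries, so passing it is no support for the difference. At 2 times or more in both libraries stood 1420 of the 7656 tested genes, with 15 of the 91 higher and 31 of the 601 lower genes, and 19 of the 24 named ones. Jchain, Mrpl22, Fbxo33, Tle3 and Ptprj passed in 1 library only. Jchain led the list only through 1 cell. It had 1277 UMIs in CGG-Cit and 7 in CGG, and 1234 of the 1277 lay in 1 barcode, without which its level was 12.5 CPM, against 7.43 CPM in CGG.

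Among genes higher in CGG-Cit members, several were abundant. Dnajc7, a chaperone partner, stood at 3695 CPM in CGG-Cit and 2267 CPM in CGG, a ratio of 1.63 (1.56 to 1.71), with 58.0 and 56.3 CPM in Cd79-negative barcodes. Cnp, known as the myelin enzyme CNPase, stood at 847 CPM in CGG-Cit and 463 CPM in CGG (1.83, 1.65 to 2.03). The 2 genes overlap on opposite strands of chromosome 11 (Dnajc7 100582818 to 100620168, Cnp 100574904 to 100591729), and no source used here gives the strand setting of the counting, so their reads may not be separate. Pafah1b3, a subunit of a lipid acetylhydrolase, stood at 1310 CPM in CGG-Cit and 786 CPM in CGG (1.67, 1.54 to 1.80), and Elof1, a transcription elongation factor, at 455 and 243 CPM (1.87, 1.63 to 2.16). Dnajc7, Cnp, Pafah1b3 and Elof1 were also higher in CGG-Cit in the Ms4a1-positive cells, by ratios of 2.63, 2.66, 2.87 and 2.04. Less abundant were Nmral1 (76.4 CPM in CGG-Cit and 28.7 CPM in CGG), Rnase6 (114 and 48.8 CPM), Rbm24 (59.9 and 25.5 CPM), Traf3ip3 (102 and 48.8 CPM), Capsl (118 and 58.4 CPM), Mrpl22 (53.2 and 22.3 CPM) and Hist3h2ba (87.2 and 41.4 CPM), with ratios from 2.03 to 2.67. Cd79-negative barcodes held 25.9 and 22.4 CPM of Mrpl22, and Traf3ip3 was higher in CGG-Cit there too, by a ratio of 2.58, against 2.09 in the members.

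Among the 12 named genes lower in CGG-Cit members, but not among all 601 lower genes, Gm8369 had the lowest ratio. It lies on chromosome 19 (11485938 to 11512577, plus strand, protein coding in the GENCODE annotation) and stood at 198 CPM in CGG-Cit and 516 CPM in CGG, a ratio of 0.384 (0.341 to 0.432), with 11.2 and 13.5 CPM in Cd79-negative barcodes. Fbxo33, part of a ubiquitin ligase, stood at 30.8 CPM in CGG-Cit and 78.5 CPM in CGG (0.392, 0.289 to 0.535), against 22.9 and 37.9 CPM in Cd79-negative barcodes. Rel, an NF-kappaB subunit, stood at 153 and 275 CPM (0.558, 0.480 to 0.650). The transforming growth factor beta feedback inhibitor Smad7 stood at 149 CPM in CGG-Cit and 302 CPM in CGG (0.493, 0.426 to 0.572), and the corepressor Tgif1 at 137 and 259 CPM (0.530, 0.453 to 0.621). The corepressor Tle3 stood at 52.6 CPM in CGG-Cit and 117 CPM in CGG, the phosphatase gene Ptprj at 37.2 and 79.6 CPM, the actin regulator Jmy at 27.6 and 62.6 CPM, and Zbtb10 at 41.3 and 82.8 CPM. Cd79-negative barcodes held 25.9 and 39.2 CPM of Ptprj and 33.1 and 44.6 CPM of Tle3. Vpreb1, Ms4a1 and Igll1 completed the 12. All 12 had CGG-Cit over CGG ratios below 1 in Cd79-negative barcodes as well, from 0.205 for Zbtb10 to 0.838 for Igll1. Smad7, Tgif1, Rel, Zbtb10, Fbxo33, Jmy and Tle3 were also lower in CGG-Cit in Dntt-positive, cycling and Ms4a1-positive cells. Smad7 stood there at 133 and 217, 69.1 and 121, and 110 and 186 CPM (CGG-Cit and CGG). Gm8369, Ptprj, Vpreb1, Ms4a1 and Igll1 were not lower in every one of these groups.

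**Figure D3:**
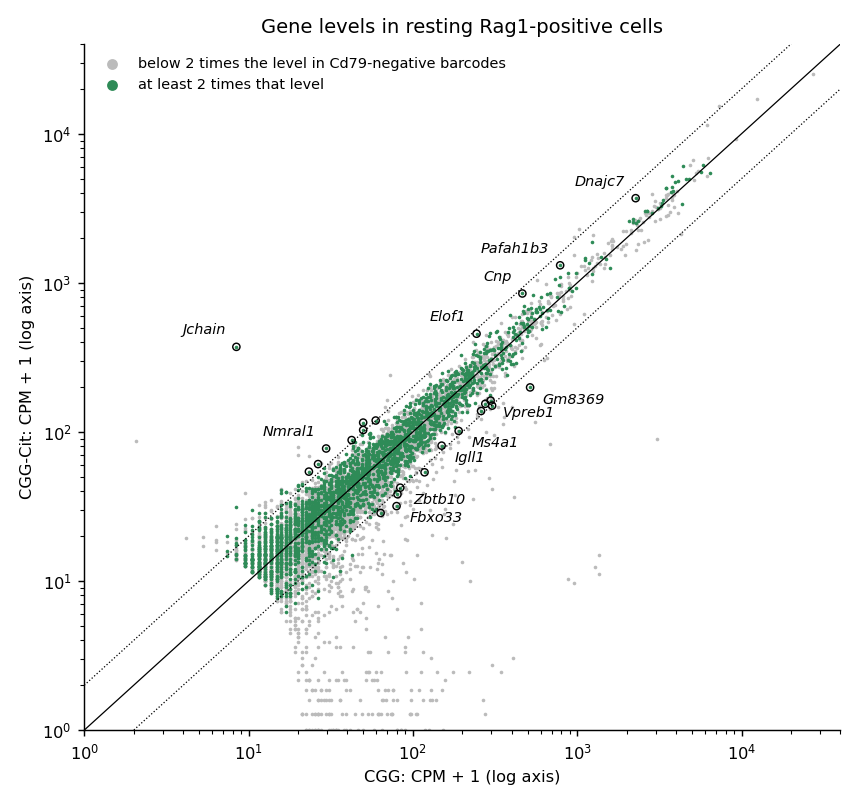
Level of each tested gene in resting Rag1-positive cells, CGG-Cit on the vertical and CGG on the horizontal log axis (CPM + 1); dotted lines mark 2-fold, green genes stand at 2 times or more their level in Cd79-negative barcodes in the library where they are higher, and circles mark the 24 named genes. Most genes below the lower dotted line are grey, and Jchain, top left, rests on 1 barcode with 1234 UMIs.

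The counts of the remaining lists stand against 1.19% higher and 7.85% lower of all tested genes. Cell cycle genes other than those of the rule had 2 of 18 tested that were 2-fold higher, Birc5 and Stmn1, and 1 lower, Ccnd2. All 3 were below their level in Cd79-negative barcodes of both libraries: Stmn1 stood at 162 CPM in CGG-Cit and 69.0 CPM in CGG members, against 463 and 174 CPM there. Ccnd3, the cyclin D of dividing pre-B cells, stood at 243 CPM in CGG-Cit and 124 CPM in CGG (1.96, 1.61 to 2.40), against 204 and 104 CPM in Cd79-negative barcodes. Immediate early and stress genes had 0 of 20 higher and 7 lower, against 1.19% and 7.85% of all tested genes. Their median log2 ratio was -0.37, and 0.17 over the 4 that were at 2 times or more the Cd79-negative level. Hspa1a had 11 UMIs in CGG-Cit and 87 in CGG members, of which 1 CGG member held 39, and stood at 7.11 and 172 CPM in Cd79-negative barcodes. Interferon response genes had 0 of 20 higher and 7 lower, against the same shares. Their median was -0.68, and -0.08 after thinning, and 1 of the 20 was at 2 times or more the Cd79-negative level. Ly6a stood at 35.7 CPM in CGG-Cit and 412 CPM in CGG members, against 128 and 1498 CPM there.

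Survival and death genes had 0 of 12 higher and 4 lower, against 1.19% and 7.85% of all tested genes. Their median log2 ratio was -0.30, and 0.24 over the 3 genes at 2 times or more the Cd79-negative level. Bcl2l1 (Bcl-xL), an inhibitor of apoptosis, stood at 119 CPM in CGG-Cit and 90.2 CPM in CGG (1.32, 1.04 to 1.69), against 31.4 and 30.6 CPM in Cd79-negative barcodes. Bcl2a1b and Bcl2a1d, near-identical copies that counting may not tell apart, had 42 and 10 UMIs in CGG-Cit and 81 and 28 in CGG, and both were below their Cd79-negative level. DNA damage genes had 0 of 9 higher and 2 lower, Gadd45b and Cdkn1a, again below that level. Homing and adhesion genes had 0 of 15 higher and 4 lower, again against 1.19% and 7.85% of all tested genes, led by Rgs1, Gpr183 and Itgb7, all below the Cd79-negative level. Cxcr4, the receptor that holds precursors in marrow, stood at 695 CPM in CGG-Cit and 830 CPM in CGG, against 110 and 140 CPM.

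The citrate and histone acetylation genes, of interest because the study's title names a tricarboxylic acid cycle metabolite and histone acetylation, are given against 1.19% higher and 7.85% lower of all tested genes. Of 19 tested citrate cycle and acetyl-CoA genes, 0 were 2-fold higher and 1, Suclg2, was 2-fold lower (10.2 CPM in CGG-Cit and 29.7 CPM in CGG, against 11.8 and 23.6 CPM in Cd79-negative barcodes), and the median log2 ratio was 0.20. Idh2, a mitochondrial isocitrate dehydrogenase, stood at 119 CPM in CGG-Cit and 81.7 CPM in CGG (1.45, 1.13 to 1.88), and Acly, which makes acetyl-CoA from citrate, at 67.4 and 81.7 CPM (0.825, 0.635 to 1.08). Slc25a1, the mitochondrial citrate carrier, stood at 20.1 CPM in CGG-Cit and 24.4 CPM in CGG (0.821, 0.506 to 1.38), against 10.2 and 20.7 CPM in Cd79-negative barcodes. Of 22 histone acetylation genes, 1 was 2-fold higher, the deacetylase Hdac3 with 108 UMIs in CGG-Cit and 10 in CGG, and 0 were lower, with a median of -0.03. Hdac3 stood at 31.4 CPM in CGG-Cit and 10.6 CPM in CGG, against 15.8 and 19.6 CPM in Cd79-negative barcodes. Glycolysis genes had 0 of 15 higher and 2 lower, the hexokinases Hk1 and Hk2, with a median of -0.04. Hk1 stood at 8.14 CPM in CGG-Cit and 21.2 CPM in CGG, and Hk2 at 9.30 and 40.3 CPM, where Cd79-negative barcodes held 36.0 and 34.5 CPM of Hk1 and 37.0 and 62.9 CPM of Hk2.

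**Figure D4:**
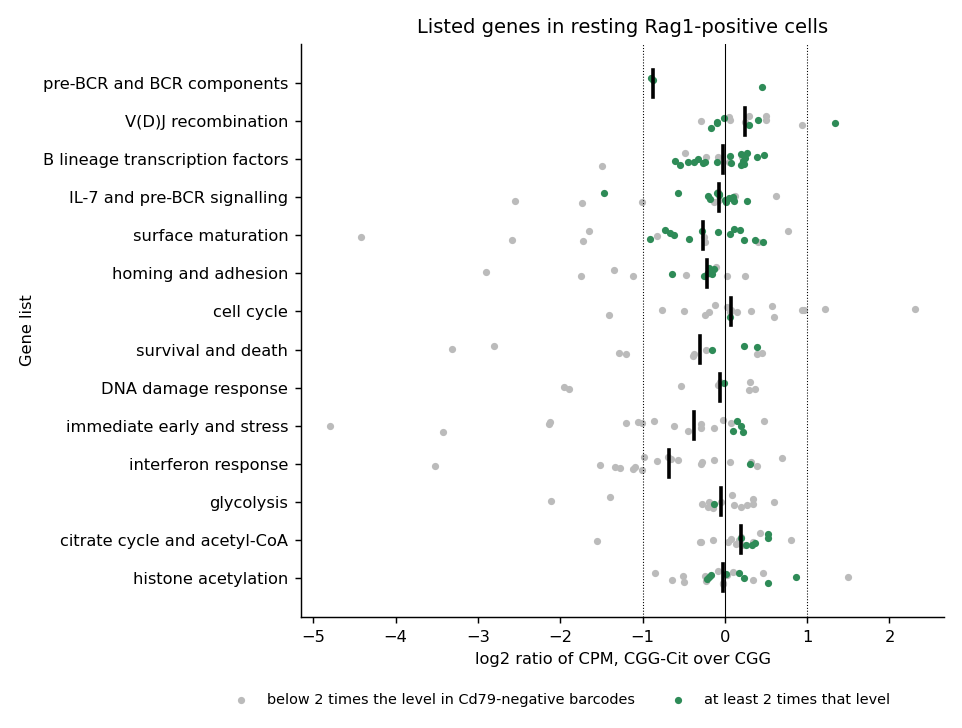
Log2 ratio of CPM, CGG-Cit over CGG, of each tested gene of 14 lists in resting Rag1-positive cells, without the genes that chose the cells; black bars are list medians, dotted lines mark 2-fold, and green genes stand at 2 times or more their level in Cd79-negative barcodes in the library where they are higher. Most green genes lie between the dotted lines, and Mre11a, with a ratio of 2.67, lies above them.

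Set against the other B lineage groups, the members held less surrogate light chain RNA than Dntt-positive cells and less MHC class II RNA than Ms4a1-positive cells, and more Rag2 RNA than cycling or Ms4a1-positive cells. The groups were formed on Rag1, Dntt, Mki67, Top2a and Ms4a1, so these contrasts are descriptions. Unless stated, they are given only where both libraries showed at least 2-fold. Against Dntt-positive cells, 367 of 8022 tested genes (4.57%) were higher and 723 (9.01%) lower in members. Against cycling cells, 613 of 7933 (7.73%) were higher and 696 (8.77%) lower. Against Ms4a1-positive cells, 204 of 7856 (2.6%) were higher and 304 (3.87%) lower.

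Against Dntt-positive cells, members had little of the surrogate light chain and much of the recombination polymerase Polm. Vpreb1 stood at 161 CPM in CGG-Cit members against 2528 CPM in Dntt-positive cells, and at 296 against 2539 CPM in CGG. Polm stood at 93.0 against 3.99 CPM in CGG-Cit, 23.3-fold higher (12.9 to 47.2), and at 104 against 3.91 CPM in CGG, 26.6-fold (10.1 to 99.5). Cd2, a known surface marker of late pre-B cells, was 27.0-fold higher in CGG-Cit (17.7 to 43.3) and 22.2-fold in CGG (12.5 to 43.6), and Il2ra (CD25), the classic small pre-B surface marker, stood at 172 against 10.2 CPM in CGG-Cit and 161 against 0.978 CPM in CGG. Gm43291 stood at 395 against 21.03 CPM in CGG-Cit and 283 against 2.93 CPM in CGG. It is annotated in GENCODE as a noncoding transcript on chromosome 6 (70719074 to 70740554, plus strand). Its interval covers the kappa light chain joining segments and constant gene, which lie on the same strand. That constant gene is not among the counted genes, so RNA of the kappa locus may be counted under Gm43291. Ikzf3, Adam19, Fcmr and Trib2 were the other leading genes, from 14.2-fold higher (Fcmr in CGG-Cit) upward.

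Of 25 tested transcription factors, 8 were higher in members than in Dntt-positive cells in both libraries (Ikzf1, Ikzf3, Irf4, Spib, Bach2, Klf2, Pou2f2 and Pou2af1), and 3 were lower (Lef1, Erg and Myc). The shares over all tested genes were 4.57% higher and 9.01% lower. Irf4 stood at 254 against 51.8 CPM in CGG-Cit and 214 against 36.2 CPM in CGG. Of 23 tested cell cycle genes 20 were lower, and 0 were higher. Dntt-positive cells could be dividing, while members had 0 Mki67 and Top2a UMIs, so the rule itself set this direction. The kinase genes Syk, Lyn and Blk and the adaptor Dok3 were higher, as were the surface genes Ms4a1, Cd22, Cd72, Ccr7, Cd2, Tnfrsf13c, Cd40, Fcrla and Cd38, while Spn (CD43), Kit and Cd34, markers of earlier precursors, were lower. Bcl2l1 stood at 119 against 29.7 CPM in CGG-Cit and 90.2 against 20.5 CPM in CGG, whereas Bcl2 was lower, at 4.94 against 29.0 CPM and 13.8 against 28.4 CPM.

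Against cycling cells, members had more RNA of some recombination genes and less of others. Rag2 stood at 75.6 against 29.1 CPM in CGG-Cit and 80.7 against 16.8 CPM in CGG, and Xrcc6, Lig4, Dclre1c (Artemis, which opens hairpin ends) and Polm were also higher in both libraries, while Hmgb1, Hmgb2, H2afx, Nbn and Rad50 were lower. Those 5 higher and 5 lower genes were out of 16 tested, against 7.73% higher and 8.77% lower of all tested genes. The list's median log2 ratios of -0.12 in CGG-Cit and -0.52 in CGG stood below those of all genes (0.09 and 0.08). Vpreb1 and Igll1 did not reach 2-fold in both libraries. Vpreb1 stood at 161 against 217 CPM in CGG-Cit and 296 against 190 CPM in CGG. Igll1 stood at 79.9 against 127 CPM in CGG-Cit and 149 against 140 CPM in CGG. Of 25 tested transcription factors 11 were higher and 1, Myc, was lower: Ebf1 stood at 4397 against 1373 CPM in CGG-Cit and 3774 against 1165 CPM in CGG, and Foxo1 at 231 against 56.3 CPM and 219 against 57.8 CPM. Of 24 cell cycle genes, 21 were lower, a direction set by the Mki67 and Top2a limit that cut these groups. The cycle inhibitor Cdkn1b (p27) was the 1 higher gene, at 281 against 95.3 CPM in CGG-Cit and 267 against 96.6 CPM in CGG. Bmf, a death-promoting Bcl2 family gene, was 9.81-fold higher in CGG-Cit (8.02 to 12.02) and 10.1-fold in CGG (6.70 to 15.6). Gm8369, Tmem163, Cacna1e, Snx29, Cd2, Lynx1 and Ly6d completed the 8 leading genes, and Ly6d stood at 2939 against 410 CPM in CGG-Cit and 2863 against 444 CPM in CGG.

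Against Ms4a1-positive cells, members had more Rag2, Xrcc6 and Il7r RNA and less Cd74 and MHC class II RNA. Rag2 was 20.1-fold higher in CGG-Cit (10.0 to 47.0) and 19.0-fold in CGG (8.35 to 53.5), and Xrcc6 7.75-fold and 12.4-fold. Ms4a1-positive cells were required to hold no Rag1 UMI, so the Rag2 contrast follows a cut on its neighbour and partner. In Dntt-positive cells Rag2 stood at 99.7 CPM in CGG-Cit and 72.4 CPM in CGG, under 2-fold from the members' 75.6 and 80.7 CPM. Nav2, Capsl, Stk3, Smarca4, Vpreb1 and Ezh2 were the other leading genes, and Ezh2, the histone methyltransferase of Polycomb, stood at 327 against 56 CPM in CGG-Cit and 194 against 21.9 CPM in CGG. Il7r stood at 369 against 74.8 CPM in CGG-Cit and 345 against 41.7 CPM in CGG, and Irf4 at 254 against 78.1 CPM and 214 against 96.1 CPM. Cd74 stood at 620 against 6663 CPM in CGG-Cit and 1102 against 6431 CPM in CGG. H2-DMb2, H2-DMa, Bank1, Fcer2a (CD23) and Lat2 were lower too, with H2-DMb2 at 7.56 against 186 CPM and 10.6 against 189 CPM. Gm43603 was also lower, and it overlaps Bank1 on the other strand, so its reads may not be separate.

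**Figure D5:**
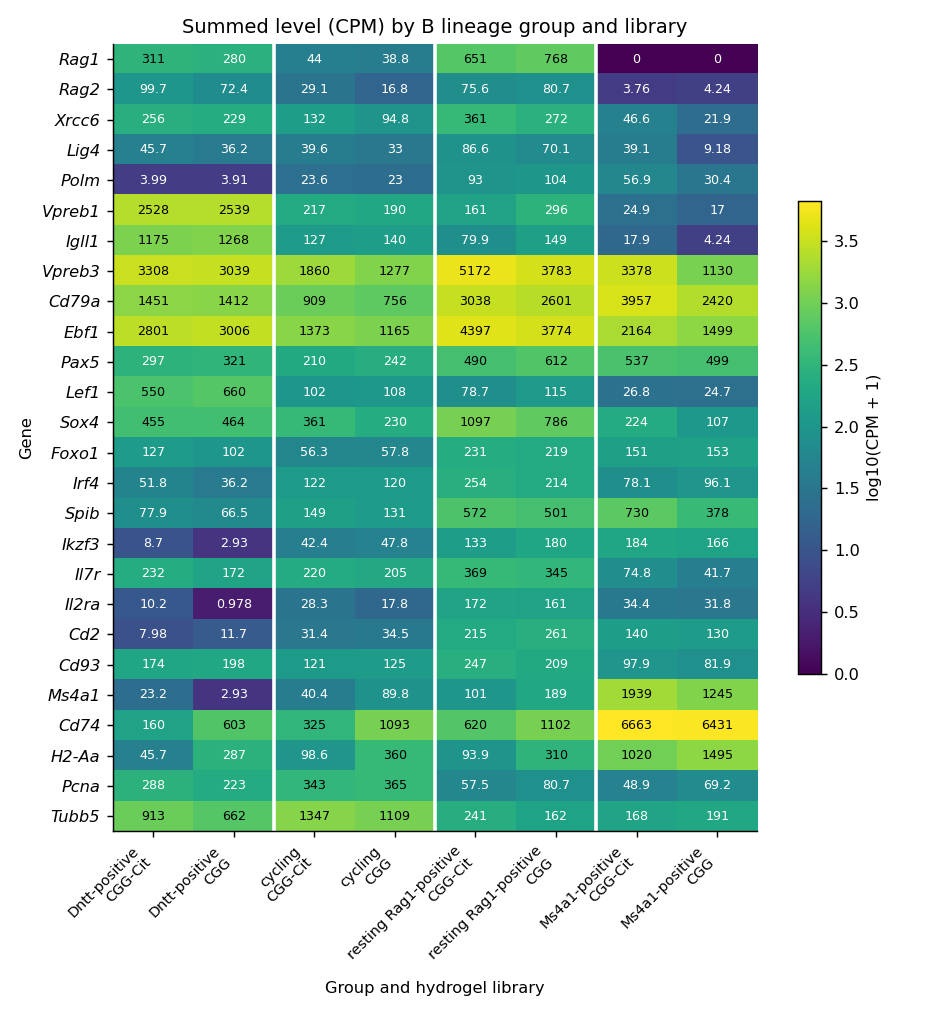
Summed level in CPM of 26 genes, printed in each cell and coloured by log10(CPM + 1), in 4 B lineage groups ordered by stage, with CGG-Cit left of CGG in each; Rag1 is at 0 in Ms4a1-positive cells because the rule sets it. Vpreb1 and Igll1 are highest in Dntt-positive cells, Rag2 and Il7r are lowest in Ms4a1-positive cells, and Il2ra, Cd2 and Sox4 are highest in resting Rag1-positive cells in both libraries.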

How the data were processed

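Droplet-based single-cell RNA sequencing (10x Chromium, 3' kits, version 2 or 3 without saying which, per the labels) was read from 2 deposited matrices of raw UMI counts per gene and barcode, with no normalization by the authors. Cell Ranger 4.0.0 made these counts, per the file headers; Cell Ranger 3.0 and build mm10 stand in the submitters' processing notes. Libraries held 106173570 UMIs (CGG-Cit) and 92517884 UMIs (CGG), and the members 3441314 and 942157.

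UMIs were summed over members per library and scaled to CPM, with exact Poisson intervals for levels and exact conditional binomial intervals for ratios. A gene was tested if it averaged 10 CPM or more and had 20 UMIs or more in all, and the 2-fold mark used 0.5 added UMI. With 1 library per group no p-value was computed. Genes between hydrogels were named as the 12 highest and 12 lowest by the interval bound nearest to 1, if they reached 50 CPM in the library where they were higher, 30 UMIs over both, and 2 times the Cd79-negative level in that library; stage genes were the 8 leading each way. From the lists of pre-B receptor, recombination and transcription factor genes any member could be named, and from others the 3 at each end. Other genes named from lists, and all genes named within the members, were chosen after their values were seen. The members and lists were chosen with earlier results of these data known.

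Doublets were not removed in the main values; Scrublet marked 537 CGG-Cit barcodes and 1 CGG barcode, so it had not worked in CGG, where the alternative without doublets left out the 1231 highest-scoring barcodes. The summing and ratio steps were tested on simulated data. Positions came from the GENCODE annotation of the same build and promoters from RefSeq. Software was Python 3.11.15, numpy 2.4.6, scipy 1.17.1, pandas 2.3.3, scanpy 1.11.5 and matplotlib 3.10.9.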

Additional observations from a re-analysis of the deposited data

Results flagged for a closer look

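In 3 named genes the intervals of the CGG-Cit over CGG ratio lay on opposite sides of 1 in resting Rag1-positive cells and in the Ms4a1-positive cells of the same libraries; with 1 library per group the difference was not tested. Ptprj had a ratio of 0.467 (0.349 to 0.630) in resting Rag1-positive cells and 1.44 (1.19 to 1.75) in Ms4a1-positive cells. Ms4a1 had ratios of 0.532 (0.443 to 0.641) and 1.56 (1.47 to 1.65), where the Ms4a1-positive group was itself chosen on Ms4a1. Igll1 had ratios of 0.538 (0.437 to 0.664) and 4.22 (1.77 to 12.2). The second rests on few cells. In Ms4a1-positive cells Igll1 stood at 17.9 CPM in CGG-Cit, with a UMI in 19 of 656 cells. In CGG it stood at 4.24 CPM, with a UMI in 2 of 318 cells and in 0 of 271 after thinning. Vpreb1 also had a ratio below 1 in resting Rag1-positive cells (0.545) and above 1 in Ms4a1-positive cells (1.47), but the interval there included 1 (0.892 to 2.49).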

How the results depend on the processing

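The share of Cd79-positive cells stayed within its interval under all 10 alternatives run (difference -2.18 to 0.489 points). The difference in the share of kept cells was positive under all 10, from 4.14 to 8.14 points, and it moved to 5.75 points with thinning to 2000 UMIs, 4.14 points with at least 2 Rag1 UMIs and 6.76 points with 5 cycling genes at 0. The count of genes 2-fold higher in CGG-Cit was 223 after thinning and 156 with at least 2 Rag1 UMIs. With no filter on low values 617 genes were higher and 3464 lower. With levels at least 2 times that without Cd79 in the library where the gene was higher these were 37 and 49, in both libraries (chosen after seeing the data) 15 and 31, at 1.5-fold 479 and 1269, and with the whole interval past 2-fold 8 and 314. Fewer or more genes were tested or admitted in these by construction; elsewhere the cause was not tested. Thinning left 295 genes higher than in cycling cells. At 1.5-fold, 848 genes were higher and 1327 lower than in Dntt-positive cells, 1376 and 1233 than in cycling cells, and 541 and 599 than in Ms4a1-positive cells. Jchain reversed to a log2 ratio of -0.21 with at least 2 Rag1 UMIs; the other 23 named genes kept their direction under all 14 alternatives. Of 227 list medians under alternatives, 16 moved by over 0.2 from their main value. Thinning moved V(D)J recombination to -0.09 and interferon response to -0.08, and interferon response stood at -0.23 with 5 cycling genes at 0 and -0.09 without the deepest 5% of members. The cell cycle median was 0.27 without doublets, 0.47 without the deepest 5% and 0.29 as the mean of each cell's CPM, where homing and adhesion stood at -0.42. Over genes at 2 times the level without Cd79 in the library where they were higher, V(D)J recombination stood at -0.05, survival and death at 0.24 and immediate early and stress at 0.17, and V(D)J recombination stood at -0.10 over those at that level in both libraries. The other 4 were medians of the pre-B and B cell receptor list, which rests on genes of the rule. The doublet alternative removed Scrublet's calls in CGG-Cit (58 members, 5.45%); in CGG, where Scrublet marked 1 barcode, it removed the 1231 highest-scoring barcodes instead (10.0%, with 24 members, 8.14%). No paired analysis was possible because each hydrogel has 1 library. Depth limits genes under about 10 CPM, where the CGG members hold few UMIs.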
